A study of Mus musculus with 192 samples.

Results

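Slc7a2, Nos2, Gch1, Ass1 and Odc1 are 5 genes of arginine and nitric oxide metabolism, and their expression is described here in mouse dendritic cells exposed to microbial ligands. They were chosen by name, as the rows of these symbols in a table of unique molecular identifier (UMI) counts, and make up 5 of its 23481 gene rows. The cells were grown from the bone marrow of female C57BL/6J mice aged 6 to 8 weeks, with GM-CSF at 15 ng/mL, and the labels name no engineered allele in any group. In wells of 100000 cells, they were stimulated for 6 h with ligands of pattern recognition receptors, the sensors that detect microbial components. The 7 ligands carry the labels' names, namely PAM, LPS (lipopolysaccharide), HMW, Zymosan (a depleted preparation, per the labels), SeV, cGAMP and CpGB. The 64 groups of 3 libraries are Ctrl, each of the 7 ligands alone, all 21 pairs and all 35 triplets. Doses, the treatment of the Ctrl wells and the number of mice are not given in the sources used here. Nothing in the labels says that the 3 libraries of a group came from separate mice or cultures, so p-values measure only the spread between these libraries, which may be technical.

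Myeloid cells take up arginine through cationic amino acid transporters, of which Slc7a2 encodes the inducible one. The inducible nitric oxide synthase Nos2 splits this arginine into nitric oxide and citrulline. Its cofactor tetrahydrobiopterin is made from GTP by a pathway that starts with Gch1, and Ass1 starts the return of citrulline to arginine. Ornithine decarboxylase, the product of Odc1, turns ornithine, which can be made from arginine, into the polyamine putrescine. Nos2 is a textbook target of microbial signals in macrophages and dendritic cells.

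Library totals ran from 46564 to 610234 UMIs with a median of 171616.5, and the Ctrl libraries held 61823 to 89530, the lowest mean of the 64 groups. The deepest library, replicate 3 of PAM + HMW + SeV, also stood apart from its group for Nos2, Gch1 and Ass1, with 194, 539 and 524 CPM (UMI counts scaled to a common library total with TMM factors) against at most 31.2, 334 and 356 CPM in replicates 1 and 2. All 8 dendritic cell markers looked for had counts, and their summed level ran from 6920 to 9960 CPM over the groups, lowest in Ctrl, although Itgax (421 CPM in Ctrl, median of groups 294) and Flt3 (4.62 and 2.33) were above their medians there. Flt3, a defining dendritic cell receptor, stayed at or below 9.34 CPM in every group. The summed 5 macrophage markers ran from 1210 to 2560 CPM and were highest in Ctrl through Csf1r (1720 CPM in Ctrl, median of groups 689) and Cd68 (490 and 327), while Fcgr1 (60.7 and 296), Emr1 (287 and 444) and Mertk (0 and 5.99) were lower there. The 3 plasmacytoid markers summed to 143 to 1330 CPM (162 in Ctrl), nearly all from Bst2 and Tcf4, with Siglech at a median of 0. Of 5 neutrophil markers 4 gave 325 to 689 CPM through S100a8 and S100a9, and none of the 3 erythroid markers had a count. Their part in the results below was not tested, and in these bulk libraries fewer cells of a type and less RNA per cell cannot be told apart.

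Over the 63 ligand conditions, Slc7a2 and Gch1 rose almost throughout and Ass1 in most conditions, Nos2 rose in most triplets and in few single-ligand groups, and Odc1 rose or fell in few. Each condition was compared with Ctrl in edgeR (quasi-likelihood F-test, p-values adjusted over 4720 genes by Benjamini-Hochberg), and a call needed an adjusted p under 0.05 and a log2 fold change of 1 or more in size. Slc7a2 rose in 62 of the 63 conditions, Gch1 in 62, Ass1 in 59 and Nos2 in 42, and none of these 4 fell in any. The count for Ass1 was 39 with library size alone as the scaling and 31 with every library thinned to 46564 UMIs. Over all tested genes and the same 63 comparisons, 14.3% of tests were called higher and 9.03% lower. Odc1 rose in 3 conditions and fell in 5. All 63 comparisons share the 3 Ctrl libraries, so their calls are not independent of each other.

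The transporter Slc7a2 (chr8:40862396-40922308, plus strand, GRCm38, GENCODE M21) had 55437 UMIs and was detected in every library. In Ctrl its level was 166, 162 and 115 CPM. HMW alone gave 183, 175 and 163 CPM, which overlapped the Ctrl range. SeV gave 468, 429 and 375 CPM and Zymosan 506, 563 and 439 CPM. Both lay wholly above Ctrl and overlapped each other. With cGAMP the libraries read 825, 649 and 614 CPM, and with CpGB 970, 796 and 1038 CPM. PAM gave 2014, 1805 and 1778 CPM and LPS 2218, 2056 and 1933 CPM, and these 6 libraries were the highest of the 24 control and single-ligand libraries.

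Against Ctrl, the log2 fold change of Slc7a2 was 3.83 ± 0.18 (SE) with LPS and 3.68 ± 0.18 with PAM. It was 2.68 ± 0.19 with CpGB, 2.24 ± 0.20 with cGAMP, 1.78 ± 0.21 with Zymosan and 1.52 ± 0.22 with SeV. All 6 rises passed, against 8.7% of tests called higher over all genes and the 7 single ligands, the weakest with edgeR adjusted p = 3.25e-09, and each was seen in 3 of 3 libraries. With HMW the difference was 0.25 ± 0.25 (edgeR adjusted p = 0.872). Of the 21 contrasts between 2 single ligands, 14 were called for this gene, against 13.7% of tests over all genes. In the order of levels LPS lay above PAM by a log2 difference of 0.15 ± 0.11 (SE, edgeR adjusted p = 0.365) and Zymosan above SeV by 0.26 ± 0.15 (edgeR adjusted p = 0.231), neither past the threshold. CpGB lay above cGAMP by a log2 difference of 0.44 and cGAMP above Zymosan by 0.46, both past the p threshold (edgeR adjusted p = 0.00667 and 0.00698) and short of the fold threshold.

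**Figure D1:**
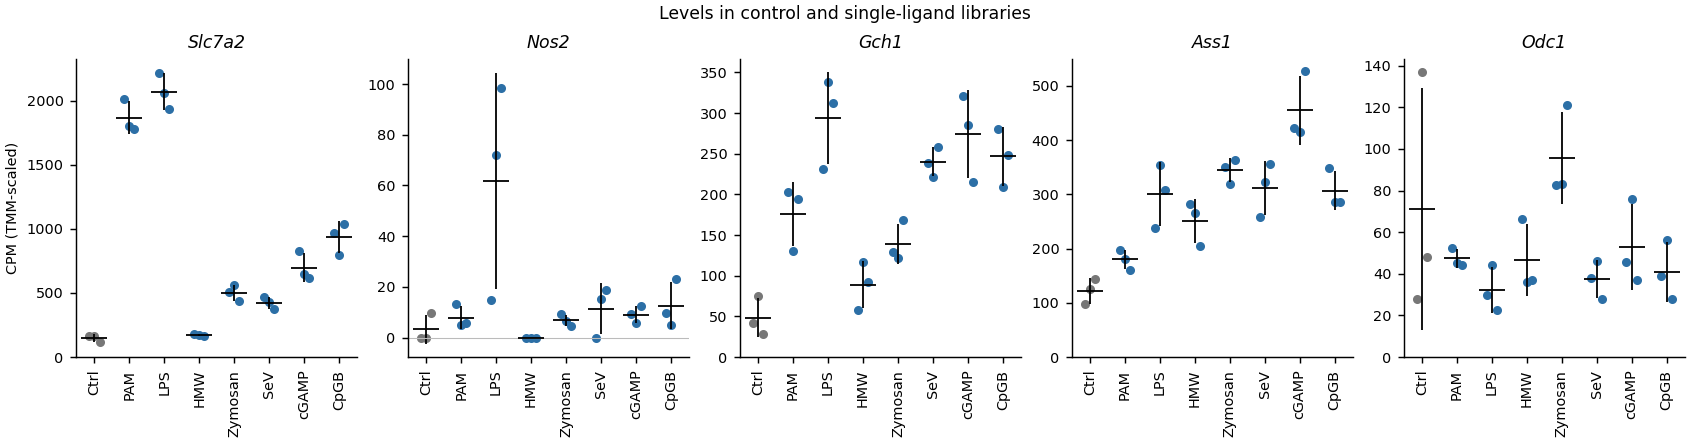
Levels of the 5 tested genes in the 24 Ctrl and single-ligand libraries, in CPM on TMM-scaled totals; points are libraries, the long bar is the mean and the vertical line 1 SD of 3 libraries. Slc7a2 with PAM or LPS lies at 1778 CPM or above in all 6 libraries, Nos2 stands out with LPS and spreads from 14.9 to 98.4 CPM, and Odc1 is highest on average with Zymosan and most spread in Ctrl.

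In combinations, the level of Slc7a2 followed the presence of PAM or LPS. The 38 groups that hold either had mean levels of 1540 to 2733 CPM (median 2090), and the 26 groups with neither had 148 to 1774 CPM (median 991.5). The highest mean was in PAM + LPS + HMW with 2774, 2597 and 2827 CPM, followed by PAM + LPS + SeV with 2658 ± 61.6 (SD, n = 3) and LPS + cGAMP with 2654 ± 164. These 3 groups overlap in their libraries. The lowest group was Ctrl, followed by HMW and SeV.

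Nos2 (chr11:78920787-78960254, plus strand), the nitric oxide synthase, was scarce: 2876 UMIs over the series, at 0 in 14 libraries and at most 96 UMIs in 1 library. The Ctrl libraries held 0, 0 and 1 UMI and the HMW libraries 0, 0 and 0. LPS gave 2, 13 and 22 UMIs, or 14.9, 72 and 98.4 CPM. The other single ligands stayed between 0 and 5 UMIs in every library. LPS was the only single ligand for which Nos2 was called against Ctrl (edgeR adjusted p = 7.69e-04, higher in 3 of 3 libraries), and the pooled ratio of 37 UMIs to 1 was 17.6 with a 95% counting interval of 2.97 to 715. The differences for PAM, Zymosan, SeV, cGAMP and CpGB, with 4, 3, 6, 4 and 7 UMIs per group against 1 in Ctrl, were not detectable at this depth.

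Between single ligands, 8 of 21 contrasts were called for Nos2, against 13.7% of tests over all genes. LPS exceeded each of the other 6 ligands. Its libraries overlapped those of SeV (0, 15.3 and 18.8 CPM) and CpGB (9.7, 5.11 and 23.1 CPM), through LPS replicate 1. Against HMW, with no UMI in 3 libraries, LPS was at least 12.8-fold higher, counting the HMW group at the 3 UMIs that a count of 0 allows. HMW was also called below SeV and below CpGB (edgeR adjusted p = 0.0469 and 0.0334), from 0 against 6 and 7 UMIs. A count of 0 allows 3, so the size of both differences is not known at this depth, and SeV overlapped HMW through its replicate 1, also at 0.

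Group means of Nos2 were higher in combinations than with single ligands on the whole. The median of the group means was 9.1 CPM over 7 single ligands, 38 CPM over 21 pairs and 101 CPM over 35 triplets. A larger share of triplets than of pairs or single-ligand groups holds LPS. The median was 157 CPM over the 22 groups with LPS and 30.3 CPM over the 42 without. The number of ligands was not tested apart from the presence of LPS. All 22 conditions that hold LPS were called above Ctrl, where 16.6% of tests over all genes were called higher, and 20 of the 41 conditions without LPS were, against 13%. In the LPS groups 65 of 66 libraries were at or above 62.4 CPM, and the remaining one was LPS alone replicate 1. The highest group was PAM + LPS + Zymosan with 332, 352 and 431 CPM (35, 50 and 62 UMIs). Next came LPS + Zymosan + SeV at 265 ± 46 CPM and LPS + Zymosan at 254 ± 40 CPM. Of the 10 highest groups 9 hold LPS and 7 hold Zymosan. The exception without LPS was PAM + Zymosan + cGAMP, with 97.2, 140 and 258 CPM. The lowest groups were HMW, PAM + CpGB with 0, 1 and 0 UMIs, and Ctrl.

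**Figure D2:**
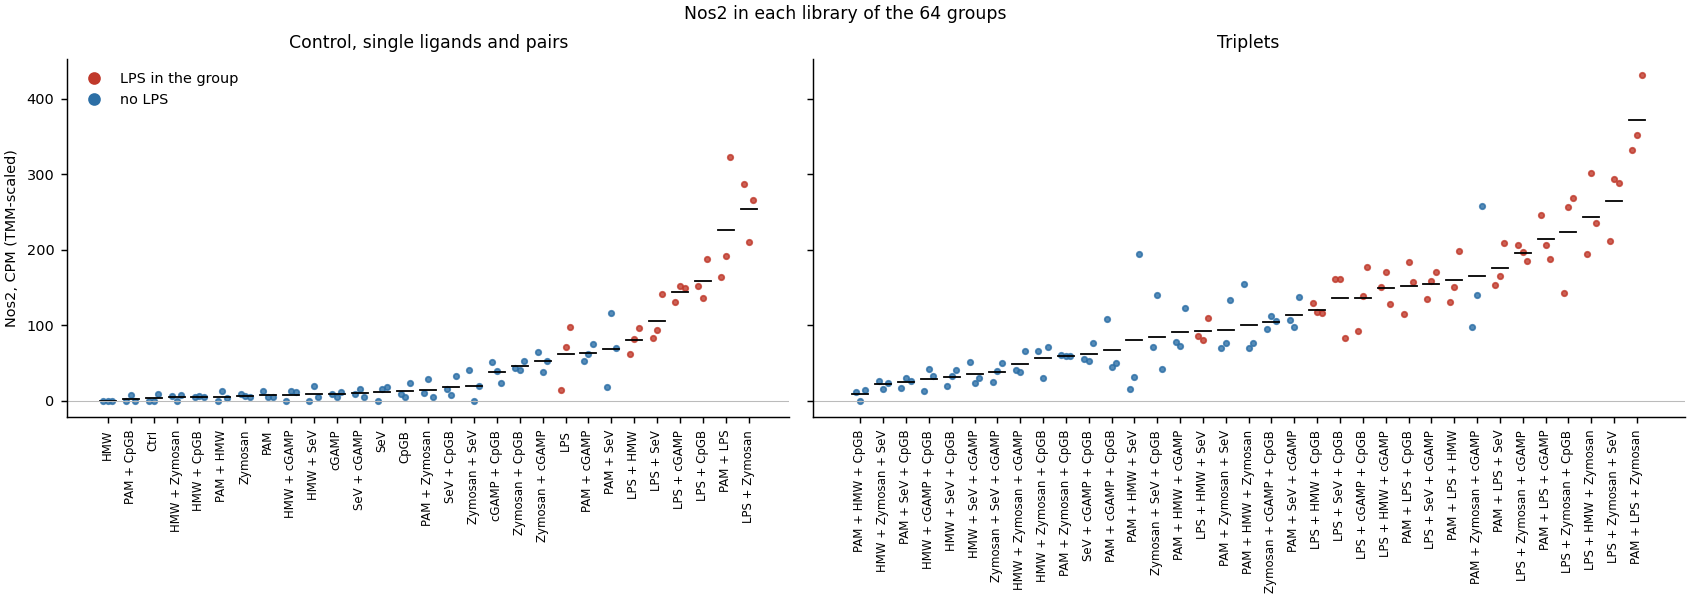
Nos2 in every library of the 64 groups, in CPM on TMM-scaled totals, ordered by group mean (bar) within Ctrl, singles and pairs (left) and within triplets (right); red points are libraries of groups that hold LPS. Groups with LPS fill the right end of both panels, up to 372 CPM in PAM + LPS + Zymosan, and PAM + HMW + SeV shows 1 library at 194 CPM beside 15.4 and 31.2 CPM.

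By the call rule with its fold threshold, Nos2 was the only one of the 5 tested genes whose level in a pair exceeded both of its single ligands. A pair was called when it lay above each single ligand by 1 or more on the log2 scale and the weaker of its 2 p-values still passed after adjustment, which 0.353% of tests over all genes did. Nos2 met this in 5 of 21 pairs. Slc7a2 passed the adjusted p in 5 pairs and fell short of the fold, with smaller log2 differences of 0.34 in PAM + cGAMP to 0.93 in cGAMP + CpGB (edgeR adjusted p = 0.0485 and 1.15e-10). PAM + LPS held 18, 36 and 91 UMIs (164 to 323 CPM), above all 3 LPS libraries and all 3 PAM libraries (13.1, 5.03 and 5.56 CPM), with a smaller log2 difference of 1.82 (edgeR adjusted p = 1.72e-05). LPS + Zymosan held 287, 210 and 266 CPM against 9.2, 6.4 and 4.67 CPM with Zymosan (log2 difference 5.17) and 14.9, 72 and 98.4 CPM with LPS, where the smaller difference was 1.88 (edgeR adjusted p = 1.94e-05). LPS + CpGB, at 152, 136 and 188 CPM, exceeded LPS by 1.24 (edgeR adjusted p = 0.0427), again without overlap.

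The other 2 such pairs combine PAM with a ligand that alone gave almost no Nos2. PAM + cGAMP held 6, 9 and 11 UMIs (52.9, 61.5 and 75.2 CPM) where PAM held 2, 1 and 1 and cGAMP 1, 1 and 2. The pooled ratio was 8.51 to PAM (95% counting interval 2.95 to 33.5) and 7.1 to cGAMP (2.46 to 28.0), and the edgeR adjusted p was 0.00801. PAM + SeV held 2, 18 and 10 UMIs (18.8, 116 and 70.1 CPM), and its lowest library was level with the highest SeV library at 18.8 CPM. Its pooled ratios were 9.85 to PAM (3.47 to 38.5) and 5.54 to SeV (2.27 to 16.3), with edgeR adjusted p = 0.0137. Among the 35 triplets, Nos2 in PAM + HMW + Zymosan was called above all 3 of its pairs, where 0.0115% of tests were called. This triplet held 35, 18 and 21 UMIs (155, 70.1 and 76.8 CPM), against 0, 3 and 1 in PAM + HMW, 1, 4 and 1 in PAM + Zymosan and 1, 0 and 2 in HMW + Zymosan, and the edgeR adjusted p was 0.00151. The groups did not overlap.

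The 6 calls differed in how far they rested on a replicate number. PAM + LPS and LPS + Zymosan stayed called when replicate 1, 2 or 3 was left out of all groups. With every library thinned to 46564 UMIs none of the 6 was called, with smaller log2 differences of 1.72 for PAM + LPS (edgeR adjusted p = 0.0711), 1.63 for LPS + Zymosan (0.144) and 1.02 to 2.65 for the other 4 (0.249 to 0.994). PAM + SeV was lost without replicate 2 (smaller log2 difference 1.84 in place of 2.40, edgeR adjusted p = 0.694), and PAM + cGAMP without replicate 2 (2.45 in place of 2.73, edgeR adjusted p = 0.174) or replicate 3 (2.63, edgeR adjusted p = 0.0665). LPS + CpGB was lost without any 1 of the 3 numbers (0.93 to 1.57) and with DESeq2 (adjusted p = 0.131). It was also lost with library size alone as the scaling (1.17, edgeR adjusted p = 0.0578). PAM + HMW + Zymosan, whose replicate 1 is its highest library, was lost without replicate 1 (2.33 in place of 2.76, edgeR adjusted p = 0.306).

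Gch1, the first enzyme of tetrahydrobiopterin synthesis, was detected in every library with 9584 UMIs. It lies at chr14:47153895-47189413 on the minus strand. Its promoter is shown because Gch1 was called in 62 of 63 conditions and is the member whose RefSeq start equals the GENCODE start. The 250 bases before the start, chr14:47189414-47189663 on the minus strand (GRCm38.p6, RefSeq), read as follows.
Gch1 promoter: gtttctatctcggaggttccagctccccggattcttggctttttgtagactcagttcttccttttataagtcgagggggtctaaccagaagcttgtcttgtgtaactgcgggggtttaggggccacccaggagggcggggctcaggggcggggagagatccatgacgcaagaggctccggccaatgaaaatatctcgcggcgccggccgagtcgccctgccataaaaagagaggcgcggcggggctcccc
No letters are in capitals because none of the 6 motifs searched on both strands was found between 250 bases before and 50 after this start. The motifs, with the share of 32851 promoters of that length that hold each, were an NF-kB motif (4.79%), an ISRE motif (3.44%), GAS TTCNNNGAA (8.3%), C/EBP TTGCNNAA (10.8%), E-box CACGTG (7.15%) and a STAT6 motif (6.95%). The table of RefSeq promoters gave an entry for 3 of the 5 genes: Gch1, Ass1 and Odc1. No motif was found for Odc1 either.

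Gch1 was low in Ctrl, at 41.6, 74.8 and 28.8 CPM (3, 6 and 3 UMIs). LPS gave 231, 338 and 313 CPM, cGAMP 321, 286 and 215 CPM, CpGB 281, 209 and 249 CPM and SeV 239, 222 and 258 CPM. These 12 libraries overlapped one another and all lay above Ctrl. PAM gave 203, 131 and 194 CPM and Zymosan 129, 122 and 168 CPM, also above Ctrl. HMW, at 58.2, 117 and 92.9 CPM, overlapped Ctrl. Here 6 of 7 single ligands were called, the weakest with edgeR adjusted p = 0.00254, against 8.7% of tests called higher over all genes. Their log2 fold changes ran from 1.60 ± 0.40 (SE) with Zymosan to 2.65 ± 0.34 with LPS. HMW gave 1.00 ± 0.43 (edgeR adjusted p = 0.407). The call for Zymosan was lost without Ctrl replicate 3, the lowest of the Ctrl libraries (1.30, edgeR adjusted p = 0.0659). It was also lost without replicate 3 of all groups (1.08, edgeR adjusted p = 0.24) and in libraries thinned to 46564 UMIs (1.12, edgeR adjusted p = 0.215). Between single ligands 5 of 21 contrasts were called, against 13.7% of tests over all genes. They were LPS above HMW and Zymosan, and SeV, cGAMP and CpGB above HMW.

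Across combinations the group means of Gch1 ran from 122 CPM in PAM + Zymosan to 401 CPM in PAM + HMW + SeV, apart from Ctrl at 48.4 CPM and HMW at 89.2 CPM. The highest group held 334, 330 and 539 CPM, and the highest value is the deepest library of the series. PAM + LPS + HMW, at 408, 380 and 413 CPM, was as high on average with a tighter spread of 17.5 CPM (SD, n = 3). PAM + Zymosan held 147, 118 and 99.9 CPM, no higher than PAM (176 ± 39.6 CPM) or Zymosan (139 ± 24.9 CPM) alone. Added to this pair, 4 of the other 5 ligands raised Gch1: SeV to 361 CPM, HMW to 354 CPM, cGAMP to 337 CPM and LPS to 305 CPM (log2 changes 1.62, 1.58, 1.52 and 1.40), where 7.61% of tests over all genes were called higher on this background.

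Ass1 (chr2:31470207-31520672, plus strand), which starts citrulline recycling, had 11714 UMIs and was detected in every library. It is shown with the only motif match found among the 3 promoters, an E-box 36 to 31 bases before the RefSeq start, in capitals below. The 30 bases chr2:31470222-31470251 on the plus strand (GRCm38.p6, RefSeq) hold it, and the GENCODE gene already starts before them, so they lie within the GENCODE gene.
Ass1 E-box: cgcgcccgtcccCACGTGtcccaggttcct
The match is a description of these letters and not a site.

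Ctrl held 97, 125 and 144 CPM of Ass1, and no single-ligand library was as low as the highest of these. PAM came closest with 197, 181 and 161 CPM and was not called (log2 fold change 0.52 ± 0.31, edgeR adjusted p = 0.287). HMW gave 283, 265 and 204 CPM (0.98 ± 0.29, edgeR adjusted p = 0.0675). It was called without HMW replicate 3 (1.14, edgeR adjusted p = 0.0245) and without the filter on low counts (1.15, edgeR adjusted p = 0.016). LPS (238, 355 and 309 CPM), CpGB (349, 286 and 286 CPM), SeV (258, 322 and 356 CPM) and Zymosan (350, 320 and 364 CPM) overlapped one another and were called, with log2 fold changes of 1.27 to 1.47. With every library thinned to 46564 UMIs the calls for LPS (0.85, edgeR adjusted p = 0.06), SeV (0.70, 0.171) and CpGB (0.65, 0.205) were lost, and LPS was also lost with library size alone (0.99). The highest was cGAMP, with 422, 415 and 528 CPM, a log2 fold change of 1.87 ± 0.27 (edgeR adjusted p = 2.23e-09). In all, 5 of 7 single ligands were called, against 8.7% of tests called higher over all genes. Of the 21 contrasts between single ligands only cGAMP against PAM was called, with a log2 difference of 1.35 ± 0.21 (SE, edgeR adjusted p = 1.52e-08). Over all genes 13.7% of such tests were called, so Ass1 was called no more often than genes in general.

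The median level of Ass1 was higher over the groups with cGAMP than over those without it. Over the 22 groups that hold it the mean levels were 278 to 535 CPM (median 454), and over the 42 without it 122 to 489 CPM (median 314). These ranges overlap. Of the 10 groups with the highest Ass1, 9 hold cGAMP and none holds LPS. The top group was PAM + cGAMP + CpGB with 644, 531 and 431 CPM, and the lowest after Ctrl and PAM was PAM + Zymosan with 232, 236 and 230 CPM. Added to a background without LPS, cGAMP moved Ass1 by log2 differences of 0.27 to 1.87, positive in 16 of 16. Added to a background with LPS, the differences were -0.20 to 0.20 with 2 of 6 positive, and this contrast between backgrounds was not itself tested across them.

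Odc1 (chr12:17544794-17551505, plus strand), the entry to polyamine synthesis, had 2152 UMIs with at most 38 in a library, and was detected in every library. Ctrl spread widely, at 27.7, 137 and 48 CPM (2, 11 and 5 UMIs). Zymosan gave 82.8, 83.2 and 121 CPM, and LPS, at the other end, 29.8, 44.3 and 22.4 CPM. Both overlapped Ctrl, and no single ligand was called (log2 fold changes -1.13 to 0.49). LPS was called lower without Ctrl replicate 1 (-1.40, edgeR adjusted p = 0.0466), with RLE factors (-1.28, edgeR adjusted p = 0.0498) and with library size alone (-1.43, edgeR adjusted p = 0.0246). Between single ligands, which use no Ctrl library, Zymosan exceeded LPS by 1.63, SeV by 1.45, CpGB by 1.27, HMW by 1.18 and PAM by 1.06, without overlap in each case. The edgeR adjusted p ran from 9.26e-04 for LPS to 0.0474 for PAM. These were 5 of 21 contrasts, against 13.7% of tests called over all genes. Zymosan and cGAMP were not called apart (0.87, edgeR adjusted p = 0.0903), and the other 6 ligands were not called apart from each other.

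The pattern of Odc1 over all groups was a higher level with Zymosan. The 22 groups with Zymosan had means of 59.0 to 163 CPM (median 96.6), and the 42 without 20.9 to 97.1 CPM (median 46.0). All 10 highest groups hold Zymosan, led by Zymosan + cGAMP + CpGB (200, 140 and 149 CPM), HMW + Zymosan + CpGB (150, 195 and 131 CPM) and Zymosan + CpGB (177, 133 and 155 CPM). These were the 3 conditions called above Ctrl, with log2 fold changes of 1.20, 1.16 and 1.12, and all but the first overlap Ctrl replicate 2. The 5 called below Ctrl, PAM + SeV (-1.79), PAM + HMW + CpGB (-1.60), LPS + SeV + CpGB (-1.57), PAM + HMW (-1.40) and PAM + LPS (-1.25), all lack Zymosan and all overlap a Ctrl library. The lowest groups were PAM + SeV with 28.2, 6.42 and 28 CPM and PAM + HMW + CpGB with 5.72, 25.5 and 31.6 CPM. Over all genes 14.3% of tests were called higher and 9.03% lower, so Odc1 was called no more often than genes in general. The calls of Odc1 depended on single Ctrl libraries, and the 5 falls also on the filter on low counts. Without that filter none of the 5 falls was called (edgeR adjusted p = 0.0949 to 0.284). Without Ctrl replicate 2, at 137 CPM, none of the 5 falls was called (log2 fold changes -0.41 to -0.93, smallest edgeR adjusted p = 0.413), and 6 conditions were called above Ctrl. Without Ctrl replicate 1 or replicate 3, none of the 3 rises was called (0.87 to 0.98), and 7 or 5 conditions were called below. With library size alone as the scaling, which moved the median of all genes by -0.36 on the log2 scale, there were 0 rises and 9 falls (0 and 8 relative to that shift), and with DESeq2 0 rises and 6 falls.

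**Figure D3:**
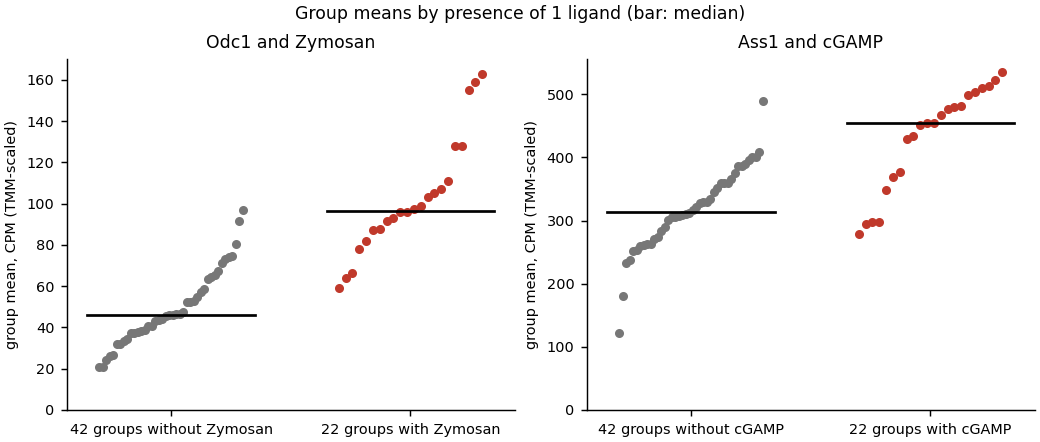
Mean level of each group, in CPM on TMM-scaled totals, for Odc1 by the presence of Zymosan and for Ass1 by the presence of cGAMP; each point is the mean of 3 libraries and the bar is the median of the groups. The medians are 46.0 and 96.6 CPM for Odc1 and 314 and 454 CPM for Ass1, without and with the ligand, and the ranges overlap in both panels.

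To ask what each ligand adds, groups with and without it were compared on the 22 backgrounds that lack it and hold at most 2 ligands. By the call rule no tested member fell in these comparisons, where 1.65% of tests over all genes were called lower and 3.28% higher. Nos2 rose in 57 of them, Slc7a2 in 36, Gch1 in 20, Odc1 in 10 and Ass1 in 8. In libraries thinned to 46564 UMIs Nos2 rose in 30 and Ass1 in 3, and without replicate 3 of all groups Odc1 rose in 3. Without the fold threshold Ass1 passed as higher in 20 and as lower in 3, all with LPS added beside cGAMP. The 3 backgrounds were PAM + cGAMP (log2 difference -0.80, edgeR adjusted p = 0.00943), Zymosan + cGAMP (-0.72, 0.00914) and cGAMP + CpGB (-0.67, 0.0478), each without overlap. Backgrounds share libraries, so these counts describe the groups and are not independent replicates.

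LPS raised Nos2 on 21 of its 22 backgrounds, where 6.09% of tests over all genes were called higher with LPS added. Its difference was positive on all 22, with a median log2 difference of 3.84. On HMW, Nos2 went from 0, 0 and 0 to 9, 16 and 21 UMIs, at least 15.3-fold. Zymosan raised Nos2 on 11 of 22 (background 2.51%), PAM on 9 (2.68%), cGAMP on 7 (5.65%), SeV on 4 (2.93%), CpGB on 4 (2.65%) and HMW on 1 (0.443%). Zymosan was positive on all 22 (median 1.54). The single rise with HMW was on PAM + Zymosan, from 15 ± 12.8 to 101 ± 47.2 CPM (log2 difference 2.76, edgeR adjusted p = 5.66e-05). On that same background Nos2 also rose with LPS, SeV and cGAMP. Both SeV on PAM + HMW (log2 difference 3.93) and PAM on HMW + SeV (3.28) were among the calls, and each rested on PAM + HMW + SeV replicate 3, with 96 UMIs where replicates 1 and 2 held 3 and 7. Without replicate 3 of all groups the differences were 1.40 and 0.84 (edgeR adjusted p = 0.499 and 0.673).

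By the call rule Slc7a2 rose on no background that already held PAM or LPS, in 67 comparisons. Over all genes 2.47% of such tests were called higher, so a count of 0 is near that share. Without the fold threshold 9 of the 67 passed as higher, by log2 differences of 0.34 to 0.60, and 1 as lower (-0.37). On the backgrounds with neither, Ctrl left aside, it rose in 30 of 80 (3.48%). With the 6 rises on Ctrl included, PAM and LPS gave 10 and 11 rises, CpGB 7, cGAMP 4, Zymosan and SeV 2 each and HMW none. The largest rise was with LPS on Ctrl. On HMW, the background nearest to Ctrl in level, all 6 other ligands raised it, and PAM took it from 173 ± 10.2 to 2135 ± 136 CPM (log2 difference 3.63, edgeR adjusted p = 3.58e-63).

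For Gch1 most of the 20 rises were on 3 backgrounds: 6 on Ctrl, 6 of 6 on HMW (9.5% over all genes) and 4 on PAM + Zymosan. The others were LPS and SeV on PAM, and LPS and cGAMP on Zymosan. For Ass1, 5 of the 8 rises were on Ctrl, and the other 3 were cGAMP on PAM, on PAM + CpGB and on HMW (log2 differences 1.43, 1.19 and 1.06). With cGAMP added, 5.65% of tests over all genes were called higher. Off Ctrl, Ass1 rose in 2 of 67 comparisons on backgrounds with PAM or LPS (2.47% over all genes). It rose in 1 of 80 on the others (3.48%), so it was called about as often as genes in general or less. For Odc1, 7 of the 10 rises were with Zymosan (2.51% over all genes), whose difference was positive on all 22 backgrounds with a median of 1.25. Among the largest was that on HMW + CpGB, from 38.3, 54.6 and 18.4 to 150, 195 and 131 CPM (log2 difference 2.01, edgeR adjusted p = 8.47e-07). The other rises of Odc1 were cGAMP on PAM + HMW (1.47), CpGB on SeV + cGAMP (1.32) and LPS on HMW + CpGB (1.04).

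**Figure D4:**
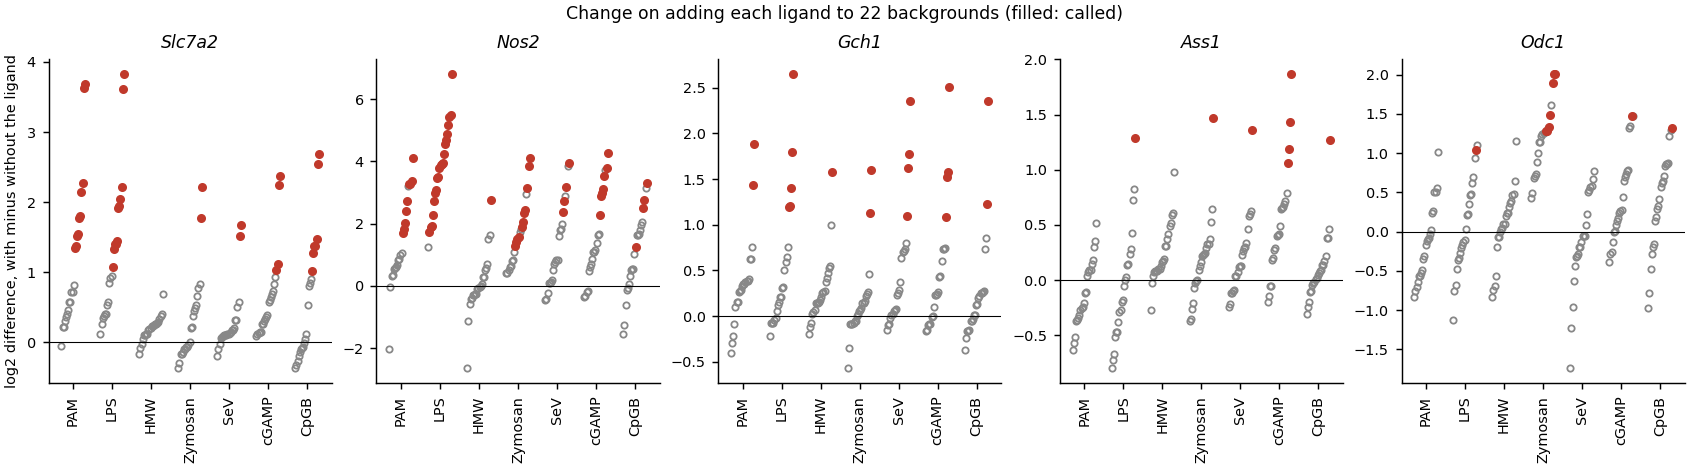
Log2 difference of each tested gene with minus without the ligand named on the horizontal axis, on each of the 22 backgrounds that lack it; filled points are called. Filled points are all above 0, LPS fills 21 of 22 for Nos2, Zymosan 7 of 22 for Odc1, and for Slc7a2 they cluster under PAM and LPS.

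Pairs were also set against the sum of their single ligands on the log2 scale (pair minus both singles plus Ctrl), and these interactions were called on the adjusted p alone, under 0.05. Over all genes 1.08% of tests were called positive and 3.5% negative. For Slc7a2 14 of 21 interactions were negative, for Gch1 12 and for Ass1 9, with none positive. The strongest for Slc7a2 was PAM + LPS: 2392 ± 291 CPM (SD, n = 3) in the pair, close to either single ligand, gave an interaction of -3.46 ± 0.22 (SE, edgeR adjusted p = 4.75e-35). The strongest for Gch1 and for Ass1 was LPS + cGAMP (-2.60 ± 0.42 and -1.67 ± 0.35, edgeR adjusted p = 1.24e-07 and 6.94e-05). None of the 6 pairs with HMW was called for these 3 genes. Without replicate 3 of all groups, negative interactions numbered 6 for Gch1 and 4 for Ass1, and with every library thinned to 46564 UMIs 7 and 1. Every interaction contains the same Ctrl libraries, in which Gch1 had 12 UMIs, Ass1 32 and Slc7a2 37.

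For Nos2 no interaction was called, and 16 of 21 were positive (median 1.13). No interaction of Nos2 was at an unadjusted p under 0.05 either, the lowest being 0.158, and with 1 UMI in Ctrl such departures were not detectable at this depth. For Odc1 LPS + CpGB was called positive, at 2.07 ± 0.67 (edgeR adjusted p = 0.021). The pair held 48.1, 68 and 108 CPM, against 29.8, 44.3 and 22.4 CPM with LPS and 38.8, 56.2 and 27.7 CPM with CpGB, and overlapped the latter. It was not called above both single ligands, and the interaction was lost without Ctrl replicate 2 (1.16, edgeR adjusted p = 0.444), without replicate 2 or 3 of all groups (0.21 and 0.416) and without the filter on low counts (0.118).

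**Figure D5:**
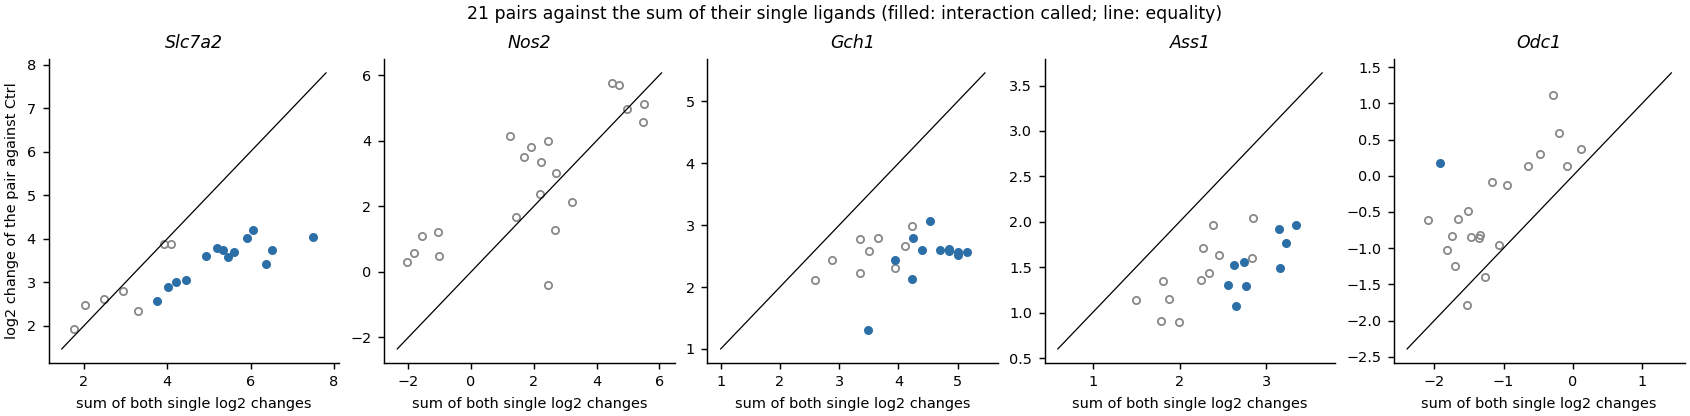
Log2 change of each of the 21 pairs against Ctrl, by the sum of the log2 changes of its 2 single ligands, for the 5 tested genes; the line marks equality and filled points are called interactions. Filled points lie below the line for Slc7a2 (14), Gch1 (12) and Ass1 (9), none is filled for Nos2, and 1 lies above it for Odc1.

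Other genes of these pathways were called higher about as often as genes in general. A list of 40 genes of arginine, nitric oxide, tetrahydrobiopterin, polyamine and proline metabolism was present in full in the count table (Azin2 under its older symbol Adc), but 13 had enough UMIs to be tested. Over the 63 conditions their 819 tests gave 112 rises (13.7%) and 42 falls (5.13%), against 14.3% and 9.03% over all genes. The rises came from 4 genes and the falls from 4, and 5 were called in no condition. Of the 6 called most often, Slc7a8, a neutral amino acid transporter, rose in 40 conditions, and Slc3a2, the heavy chain it pairs with, in 38. Sat1, the acetyltransferase that starts polyamine breakdown, rose in 33. Srm, the spermidine synthase downstream of Odc1, fell in 20, Qdpr, which recycles tetrahydrobiopterin, in 10, and Oat, the ornithine aminotransferase, in 7. Srm was scarce, with 479 UMIs over the series and a mean of 15 CPM, so its 20 falls rest on few UMIs.

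Among single ligands, Slc7a8 was called with LPS (log2 fold change 1.28), SeV (1.12) and CpGB (1.12), from 104 ± 17.7 CPM in Ctrl to 251 ± 50 CPM with LPS (SD, n = 3). Slc3a2 was called with PAM, Zymosan and CpGB, which gave 1007 ± 20.1, 958 ± 103 and 968 ± 95.3 CPM against 471 ± 83.7 in Ctrl. Sat1 was called with SeV and cGAMP, at 1165 ± 151 and 1245 ± 180 CPM against 495 ± 68.4. Oat fell with LPS, to 29.8, 55.4 and 67.1 CPM against 69.3, 125 and 134 CPM in Ctrl, without overlap (log2 fold change -1.06 ± 0.41 (SE), edgeR adjusted p = 0.0361). Srm and Qdpr were called with no single ligand.

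Over the 64 group means of log2 CPM, the genes whose levels followed a member most closely were listed among the 4500 genes that averaged 20 CPM or more. The points share ligands, Ctrl and normalization, so the correlations are descriptions. They were closest for Gch1 (Pnp with Pearson r = 0.932, Irg1 0.907, Trex1 0.903) and Slc7a2 (AA467197 0.924, Plek 0.924, Slc15a3 0.922). For Nos2 they were Stat3 (0.899), Igsf8 (0.89) and Srgn (0.883). Odc1 (Gm7120 0.788, Ezr 0.781, Gdf15 0.762) and Ass1 (Zcchc2 0.783, Lilrb4 0.775, Dck 0.739) had looser matches. Between members r was 0.70 for Nos2 and Slc7a2 and 0.70 for Slc7a2 and Gch1. It was 0.56 for Ass1 and Gch1, 0.54 for Nos2 and Gch1, 0.07 for Nos2 and Ass1, and -0.10 to 0.23 for Odc1 with the other 4.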

How the data were processed

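The authors' deposited values are whole-number UMI counts per gene symbol, without normalization, for 64 groups of 3 libraries. Per the labels' protocols, RNA from lysed cells was reverse transcribed with template switching, pooled, tagmented and sequenced on a NextSeq. Per the submitters' processing notes, BWA 0.7.15 and the mouse build mm10 were used, and the rule for collapsing UMIs, the annotation and the handling of reads that match several genes are not given in the sources used here. Gene positions come from GENCODE M21 (GRCm38) and promoter sequences from RefSeq (GRCm38.p6).

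From these counts, CPM were computed on TMM-scaled library totals and are given per library or as mean ± SD of 3 libraries. One model with a coefficient per group was fitted to all libraries in edgeR 4.0.16 (R 4.3.3, quasi-likelihood F-test, 128 residual degrees of freedom), after filterByExpr kept 4720 of 23481 genes and 95.7% of UMIs. P-values were adjusted by Benjamini-Hochberg over those genes within each contrast. A call needed an adjusted p under 0.05 and a log2 fold change of at least 1 in size, and interactions no fold. SEs are the fold change divided by the square root of F, and none is given for Nos2 because they are unreliable near 0 counts. Ratios of pooled Nos2 UMIs carry 95% intervals for counting error alone, and a group at 0 is counted at 3 UMIs. The script was tested on simulated data.

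Named besides the 5 genes were the groups with the highest and lowest mean, the largest calls of each kind, the 6 most often called pathway genes and the 3 genes most like each tested member (Pearson r over 64 group means of log2 CPM with a prior count of 2). Other members and 1 gene of the pathway list are not reported here and were left out of the member and list counts. Members, gene lists, tests and this rule were chosen with earlier results of these data known. Single values shown beside these (Nos2 in PAM + HMW + SeV, Gch1 in PAM + Zymosan) were picked after their values were seen. The alternatives were RLE factors, library size alone, no filter, DESeq2 1.42.0, thinning to 46564 UMIs, the replicate number as a block, and leaving out replicates. The fits with a block or with replicates left out kept the dispersion trend of the fit to all libraries.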

Additional observations from a re-analysis of the deposited data

How the results depend on the processing

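Of 163 alternative values for the counts of calls given above, 143 stayed within 1.5 times the reported count. Without the fold threshold, calls numbered 51 between single ligands and 10 above or below both single ligands (5 of them Slc7a2). In added-ligand comparisons without that threshold they numbered 23 for Ass1 (3 lower), 76 for Slc7a2 (1 lower) and 34 for Gch1 (0 lower). Against Ctrl, the median log2 change over all genes shifted by -0.16 with RLE factors or DESeq2 and by -0.36 with library size alone. With library size alone Ass1 was called in 39 conditions against Ctrl (56 relative to that shift) and in 5 added-ligand comparisons. Thinning every library to 46564 UMIs gave Ass1 31 conditions and 3 added-ligand comparisons, Nos2 30 added-ligand comparisons, and no test of Odc1. Counts over the 5 genes together thus have no thinned value, but none of the 6 Nos2 calls of combinations was made in thinned libraries. Without the filter on low counts Odc1 was called in 3 conditions, all of them higher. The cause was not tested in any of these. Leaving out a replicate number or a Ctrl replicate gave 3 to 7 conditions and 3 to 9 added-ligand comparisons for Odc1. It gave 2 to 4 pairs against both single ligands, 0 to 1 triplet against all 3 pairs, and 22 to 35 pair interactions, with fewer samples in each fit.

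With the replicate number as a block, the pairs above both single ligands numbered 6 in place of 5, pair interactions 38 in place of 36 and Nos2 rises with an added ligand 61 in place of 57. Same-numbered libraries of different groups did not deviate together (median r = 0.008, with 0.1% of 6048 pairs of libraries above 0.1, against -0.004 for libraries with other numbers), so the numbers are not taken as a pairing. Depth limits Nos2, with 1 UMI in Ctrl, Odc1, with 18 UMIs there, and Srm, with 479 UMIs over the series.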
